A study of Mus musculus with 50 samples.

Results

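The 31 genes described here carry out or control the synthesis of cholesterol and fatty acids. They were followed in RNA-seq libraries of mouse ES (embryonic stem) cells and of epiLC. EpiLC are epiblast-like cells, a formative state between naive ES cells and the epiblast after implantation. The genes were chosen by symbol, 18 enzymes of the sterol arm, 6 regulators and transport proteins, and 7 enzymes of the fatty acid arm. Each symbol matched 1 row in each of the 4 expression tables, so the set makes up 31 of 17043 genes in the table of FPKM values and 31 of 55421 in each of the 3 tables of TPM values. All 31 passed the filter on low values in every table.

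The series asked how β-catenin and proteins that act with it control genes of development. V6.5, a mouse ES cell line, was kept naive in 2i, a medium with a MEK and a GSK3 inhibitor, and carried short hairpins against β-catenin (shBcat, 2 libraries), E2F6 (shE2F6, 2 libraries), HP1γ (labelled shHP1r, 2 libraries) or GFP as a control (shGFP, 6 libraries). A line labelled QKO, a name that the labels do not spell out, was kept in 2i with shBcat or shGFP (3 libraries each), at 48 h, counted from a point that is not given. V6.5 cells with no hairpin named were measured in 2i and after 24 and 48 h of epiLC conversion (2 libraries each). EpiLC with shBcat were measured at 24, 48 and 96 h and control epiLC, for which no hairpin is named, at 96 h (2 libraries each). Whether replicates are separate cultures is not stated, so the spread behind each p-value may be technical. In such bulk libraries, fewer cells of a type and less RNA per cell cannot be told apart.

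Cells make cholesterol from acetyl-CoA through the mevalonate pathway to squalene and lanosterol, and through a series of reductions and demethylations from lanosterol to cholesterol. Acetyl-CoA is also the substrate of acetyl-CoA carboxylase and fatty acid synthase, whose products are elongated and desaturated. The transcription factors SREBP1 and SREBP2, encoded by Srebf1 and Srebf2, turn on most of these enzymes when membrane sterol is low: SCAP then escorts them out of the endoplasmic reticulum, where the INSIG proteins otherwise hold them.

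The targeted genes were low with their own hairpins. Ctnnb1, which encodes β-catenin, averaged 6.60 ± 0.021 FPKM (SD, n = 2) with shBcat and 116 ± 20.3 FPKM (n = 6) with shGFP in V6.5 cells in 2i. It averaged 64.4 ± 17.1 TPM with shBcat and 505 ± 20.2 TPM with shGFP in QKO cells (n = 3 each), and 144 ± 2.15 TPM with shBcat and 445 ± 4.56 TPM in controls at 96 h of epiLC (n = 2 each). E2f6 and Cbx3, the gene for HP1γ, stood at 3.06 ± 0.69 and 6.93 ± 0.46 FPKM with their own hairpins, against 10.0 ± 0.82 and 63.5 ± 5.88 FPKM with shGFP. Sequencing depth is not known for any library. Between 12446 and 15351 genes reached 1 FPKM or TPM per library. Among the V6.5 hairpin libraries, the shE2F6 libraries and shGFP replicates 3 and 4 stood apart, with 19.3% to 22.9% of the values in mitochondrial transcripts, against 6.23% to 10.3% in the other 8. In shGFP replicates 3 and 4, 27 of the 31 lipid genes were lower than in each of the other 4 controls, and 0 were higher. Core pluripotency genes were present in every library. With no hairpin named, naive markers were lower and formative markers higher at 24 and 48 h of epiLC than in 2i. The summed level of 8 naive genes was 691 to 695 TPM in 2i, 135 to 141 TPM at 24 h and 61.7 to 63.2 TPM at 48 h of epiLC, and that of 5 formative genes was 88.8 to 92.5, 891 to 899 and 357 to 359 TPM.

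In V6.5 cells in 2i with no hairpin named, the most abundant members per transcript length were Scd2, a stearoyl-CoA desaturase (593 and 585 TPM in the 2 libraries), Fdps, the farnesyl diphosphate synthase (368 and 403 TPM), Msmo1, the methylsterol monooxygenase (339 and 328 TPM), and Hmgcs1, the cytosolic HMG-CoA synthase (330.3 and 327 TPM). Hmgcs1 and Msmo1 overlapped, and the others did not. The least abundant were Scap (10.2 and 10.8 TPM), the sterol reductase Hsd17b7 (13.4 and 12.2 TPM) and Insig2 (14.7 and 14.02 TPM). The 18 sterol enzymes summed to 2086 and 2123 TPM and the 7 fatty acid enzymes to 1511 and 1519 TPM.

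At 96 h of epiLC, many of the lipid synthesis genes were lower with shBcat. Of the 31 members, 15 fell and 0 rose in the limma test (Benjamini-Hochberg adjusted p under 0.05 over 15304 genes), where 4.82% of all genes tested were called, 2.29% higher and 2.54% lower. In 27 of 31 members (87.1%), both shBcat libraries lay below both controls, which was so for 24.6% of all genes tested. The median log2 change was -0.31 over the members and -0.01 over all genes tested. Of the sterol enzymes, 10 of 18 fell, as did 2 of 6 regulators and transport genes and 3 of 7 fatty acid enzymes. All log2 changes are of the value plus 1, and each adjusted p below is limma's.

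**Figure D1:**
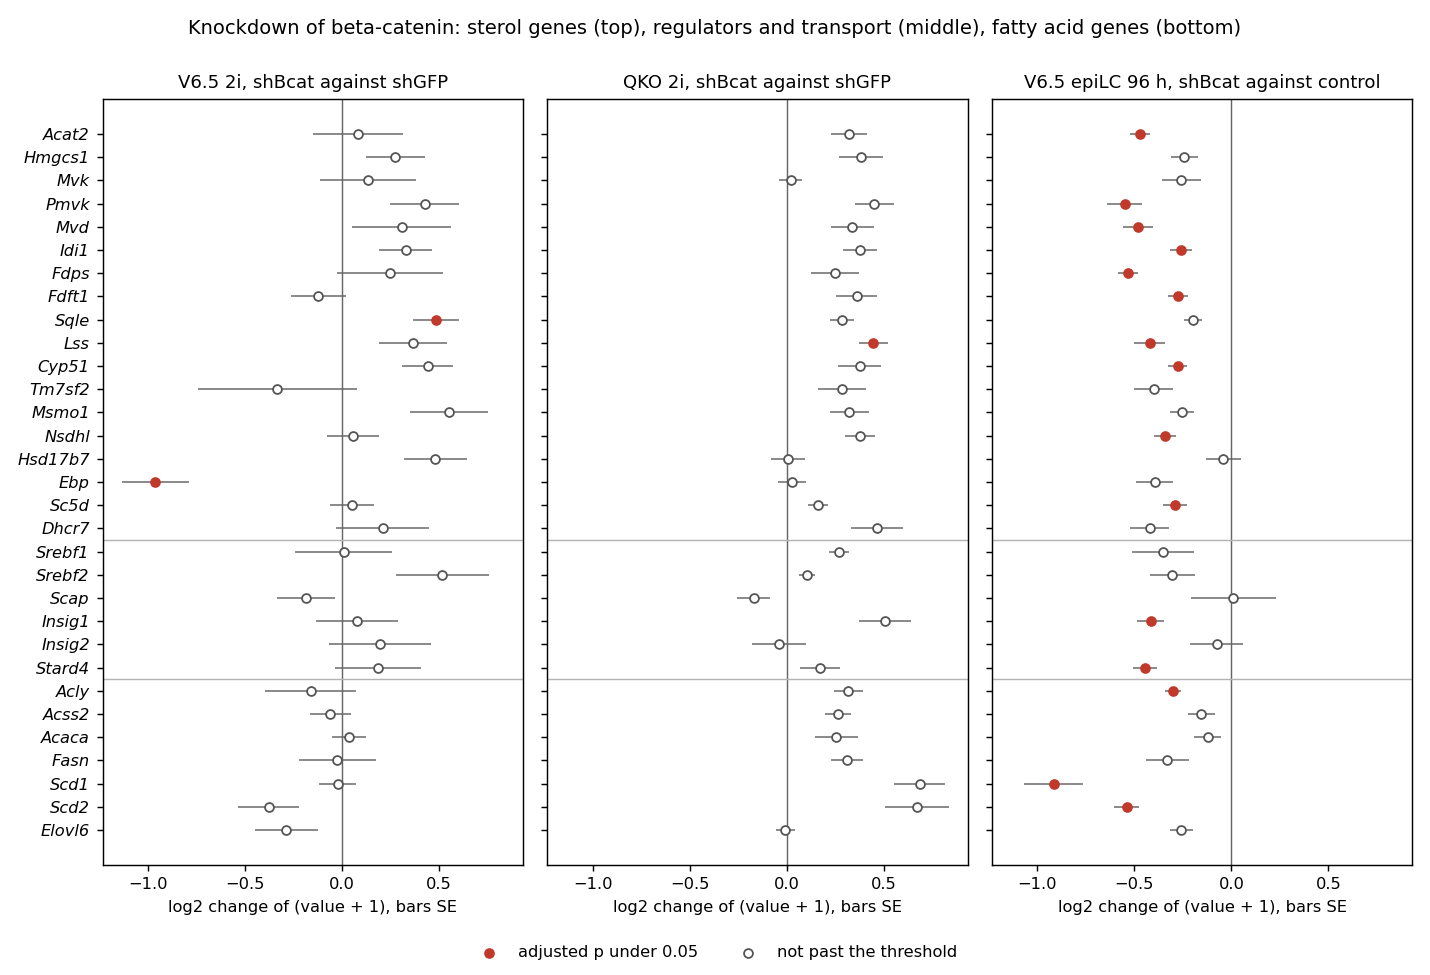
Change of each of the 31 genes on β-catenin knockdown in V6.5 cells in 2i, QKO cells in 2i and V6.5 epiLC at 96 h; points are log2 changes of (FPKM or TPM + 1), bars are standard errors, and red points passed the adjusted p threshold. At 96 h 30 of 31 points lie below 0, in QKO cells 28 of 31 lie above 0, and in V6.5 cells in 2i they lie on both sides.

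Among the regulators at 96 h, Insig1, a retention factor for SCAP that is itself an SREBP target, had 104 and 99.8 TPM with shBcat, against 134 and 138 TPM in controls. It fell by 0.41 on the log2 scale (SE 0.069, adjusted p = 0.0162). Stard4, which carries sterol between membranes, had 31.3 and 31.04 TPM with shBcat, against 42.8 TPM in both controls, and fell by 0.44 (SE 0.062, adjusted p = 0.00766). The transcription factor genes did not pass the test. Srebf2 had 129 and 155 TPM with shBcat and 157 and 197 TPM in controls, a log2 change of -0.31 (SE 0.12, adjusted p = 0.202). Srebf1 had 59.7 and 81.95 TPM with shBcat and 80.0 and 100.2 TPM in controls, a log2 change of -0.35 (SE 0.16, adjusted p = 0.286). In Srebf1, replicate 2 with shBcat lay above replicate 1 of the controls, so the groups overlapped. Scap, at 16.85 and 24.0 TPM with shBcat against 16.3 and 24.5 TPM in controls, also differed more between replicates than between groups.

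Along the sterol arm at 96 h, the early steps were among those that fell. Acat2, the cytosolic thiolase of the first condensation, had 100.2 and 96.5 TPM with shBcat, against 135 and 138 TPM in controls, and fell by 0.47 (SE 0.051, adjusted p = 0.00263). Pmvk, the phosphomevalonate kinase, had 102 and 90.2 TPM with shBcat, against 143 and 139 TPM, and fell by 0.55 (SE 0.09, adjusted p = 0.0147). Mvd, the mevalonate diphosphate decarboxylase, had 76.5 and 78.7 TPM with shBcat, against 103 and 115 TPM, and fell by 0.48 (SE 0.075, adjusted p = 0.012). In all of these the groups were well apart. Fdps, which joins isoprene units to farnesyl diphosphate, had 294 and 289 TPM with shBcat, against 409 and 435.5 TPM in controls, and fell by 0.53 (SE 0.054, adjusted p = 0.00199). Lss, the lanosterol synthase, had 124 and 123 TPM with shBcat, against 159 and 173 TPM, and fell by 0.42 (SE 0.08, adjusted p = 0.0266). Idi1, the isopentenyl diphosphate isomerase, had 129 and 119 TPM with shBcat, against 153 and 143 TPM, and fell by 0.26 (SE 0.057, adjusted p = 0.0454). Fdft1, Cyp51, Nsdhl and Sc5d also fell, by 0.27 to 0.34. Hmgcs1 had 316 and 290.15 TPM with shBcat and 361 and 356 TPM in controls, a log2 change of -0.24 (SE 0.071) that missed the threshold at an adjusted p of 0.105. Sqle, the squalene epoxidase, had 94.8 and 91.6 TPM with shBcat and 108 and 106 TPM in controls and missed it more narrowly (log2 change -0.20, SE 0.045, adjusted p = 0.053). In both of these genes too, each shBcat library lay below each control.

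In the fatty acid arm at 96 h, the desaturases carried the largest differences. Scd1 (chromosome 19, 44394450 to 44407709 in GRCm38.p6) had 108 and 135 TPM with shBcat, against 201 and 261 TPM in controls, and fell by 0.91 (SE 0.15, adjusted p = 0.0239). Scd2, a neighbouring gene (chromosome 19, 44293676 to 44306864), had 505 and 523 TPM with shBcat, against 730.1 and 764 TPM, and fell by 0.54 (SE 0.063, adjusted p = 0.00395). Scd1 and Scd2 are close paralogs, so reads may have been shared between them. Acly, which makes cytosolic acetyl-CoA from citrate, had 189.7 and 196 TPM with shBcat, against 237 and 239 TPM, and fell by 0.30 (SE 0.042, adjusted p = 0.00757). Fasn, the fatty acid synthase, had 192 and 229.8 TPM with shBcat and 242 and 289 TPM in controls, a log2 change of -0.33 (SE 0.11, adjusted p = 0.146). Acss2, which makes acetyl-CoA from acetate, had 9.14 and 9.77 TPM with shBcat and 10.5 and 10.75 TPM in controls (log2 change -0.15, SE 0.069, adjusted p = 0.267). The groups did not overlap in any of the 7 fatty acid genes.

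Several markers and the mitochondrial share also differed at 96 h. Naive genes summed to 57.45 to 63.1 TPM with shBcat and 54.5 to 59.2 TPM in controls, formative genes to 236 to 261 and 217 to 232 TPM, fibroblast or feeder genes to 8.35 to 8.53 and 7.26 to 7.74 TPM, and primitive endoderm genes to 14.9 to 16.8 and 17.3 to 17.5 TPM. Core pluripotency genes summed to 605 to 609 TPM with shBcat and 558 to 568.3 TPM in controls. Of these lists, Nr0b1 of the 8 naive genes (0.76), Sox2 of the 3 core pluripotency genes (0.28) and Dcn of the 6 fibroblast or feeder markers (0.54) rose, Foxa2 of the 6 primitive endoderm markers fell (-1.07), and Postn was listed at 0 in both controls. Mitochondrial transcripts took 4.87% and 4.76% of the values with shBcat and 3.91% and 3.83% in controls. The part of these shifts in the lipid difference was not tested. The members' median log2 change was -0.36 and -0.29 without control replicate 1 or 2, against -0.023 and -0.0054 over all genes. Without shBcat replicate 1 or 2 it was -0.30 and -0.39, against 0.012 and -0.038 over all genes. The count of members called depends on the setting. With no filter on low values 5 fell, where 169 of 33829 genes tested rose and 172 fell. In a fit of the 4 libraries alone 8 fell, where 117 of 14577 genes rose and 151 fell. In both fits 0 members rose.

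Since many of these genes moved together at 96 h, their promoters were read from RefSeq (GRCm38.p6, 250 bases before to 50 after each annotated start). Windows were found for 25 of the 31 genes, 33 windows in all. Scd1, Scd2, Sqle, Fdft1, Fdps and Stard4 had no entry. The motif CCAAT, bound by NF-Y, a partner of SREBP at several of its targets, occurred on either strand in 22 of 33 windows (66.7%), against 37.4% of all 32851 windows. GGGCGG, bound by Sp1, occurred in 25 windows (75.8%, against 35.7%), and CACGTG, the E-box, in 6 (18.2%, against 7.15%). TCACNCCAC, a strict form of the sterol regulatory element, occurred in 1 window (3.03%, against 1.24%), that of Hmgcs1. Matches to different motifs did not overlap in members with a single window. A match describes letters and not binding. CCAAT was found in 9 of the 10 genes with a window that fell at 96 h and in 12 of the 15 others. The 180 bases before the start are shown, in the direction of transcription, for 5 genes of the sterol arm with capitals on CCAAT or its complement ATTGG and on the sterol regulatory element. They span the mevalonate steps (Hmgcs1, Mvd, Idi1) and the steps after lanosterol (Msmo1, and Nsdhl, a sterol dehydrogenase), and 3 of them fell at 96 h (Mvd, Idi1 and Nsdhl).
Hmgcs1, chr13:119690171-119690350, plus strand: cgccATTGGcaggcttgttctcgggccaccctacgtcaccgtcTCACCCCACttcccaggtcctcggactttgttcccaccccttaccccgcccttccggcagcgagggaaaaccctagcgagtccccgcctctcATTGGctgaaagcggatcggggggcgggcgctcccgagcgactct
Mvd, chr8:122443423-122443602, minus strand: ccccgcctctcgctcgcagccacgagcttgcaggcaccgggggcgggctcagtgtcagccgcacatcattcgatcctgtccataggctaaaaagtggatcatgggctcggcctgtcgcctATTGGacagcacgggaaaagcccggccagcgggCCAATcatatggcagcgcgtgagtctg
Idi1, chr13:8885426-8885605, plus strand: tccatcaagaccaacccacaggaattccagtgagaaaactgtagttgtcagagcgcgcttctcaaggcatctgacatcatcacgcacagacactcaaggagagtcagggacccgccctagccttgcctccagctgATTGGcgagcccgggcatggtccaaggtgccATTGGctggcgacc
Msmo1, chr8:64733579-64733758, minus strand: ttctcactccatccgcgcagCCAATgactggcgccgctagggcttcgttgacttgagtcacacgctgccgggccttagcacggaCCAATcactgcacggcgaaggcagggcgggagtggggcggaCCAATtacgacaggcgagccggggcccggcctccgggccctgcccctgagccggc
Nsdhl, chrX:72918341-72918520, plus strand: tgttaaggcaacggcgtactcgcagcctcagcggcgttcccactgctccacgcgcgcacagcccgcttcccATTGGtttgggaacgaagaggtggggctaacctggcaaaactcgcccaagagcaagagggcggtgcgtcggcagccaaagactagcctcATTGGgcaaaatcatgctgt
The stretch of Msmo1 holds 3 such pentamers and each of the others 2. No rule was set for the choice of these 5 genes, and they do not stand for the whole arm. Lss, Cyp51 and Pmvk had fewer such pentamers in their windows and Acat2 had none, and these genes fell at 96 h too. In Hmgcs1 the sterol regulatory element starts 137 bases before the start, between both pentamers.

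During conversion from 2i to epiLC without a hairpin named, the set first split and then declined. At 24 h against 2i, 13 members rose and 15 fell, in a comparison in which 76% of all genes tested were called (36.2% higher and 39.8% lower), so the count alone is near the background. At 48 h against 24 h, 5 rose and 23 fell, where 74.2% of all genes were called, 45.2% higher and 28.9% lower; the median log2 change was -0.42 over the members and 0.12 over all genes. At 48 h against 2i, 5 rose and 24 fell, where 75.9% were called, 45.1% higher and 30.8% lower. The sterol enzymes summed to 2086 and 2123 TPM in 2i, 2138 and 2134 TPM at 24 h and 1556 and 1553 TPM at 48 h. The sum of the fatty acid enzymes was 1511 and 1519 TPM, then 1506 and 1499.6 TPM, then 1014 and 970.4 TPM. Markers shifted over the same times. Core pluripotency genes summed to 1780 and 1815 TPM, then 1373 and 1420 TPM, then 573.5 and 541 TPM. Primitive endoderm markers summed to 5.99 and 5.54, 6.51 and 6.42, and 20.8 and 24.6 TPM. Fibroblast or feeder markers summed to 3.98 and 2.96, 11.3 and 13, and 15.1 and 14.1 TPM. The part of these shifts in the lipid values was not tested.

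**Figure D2:**
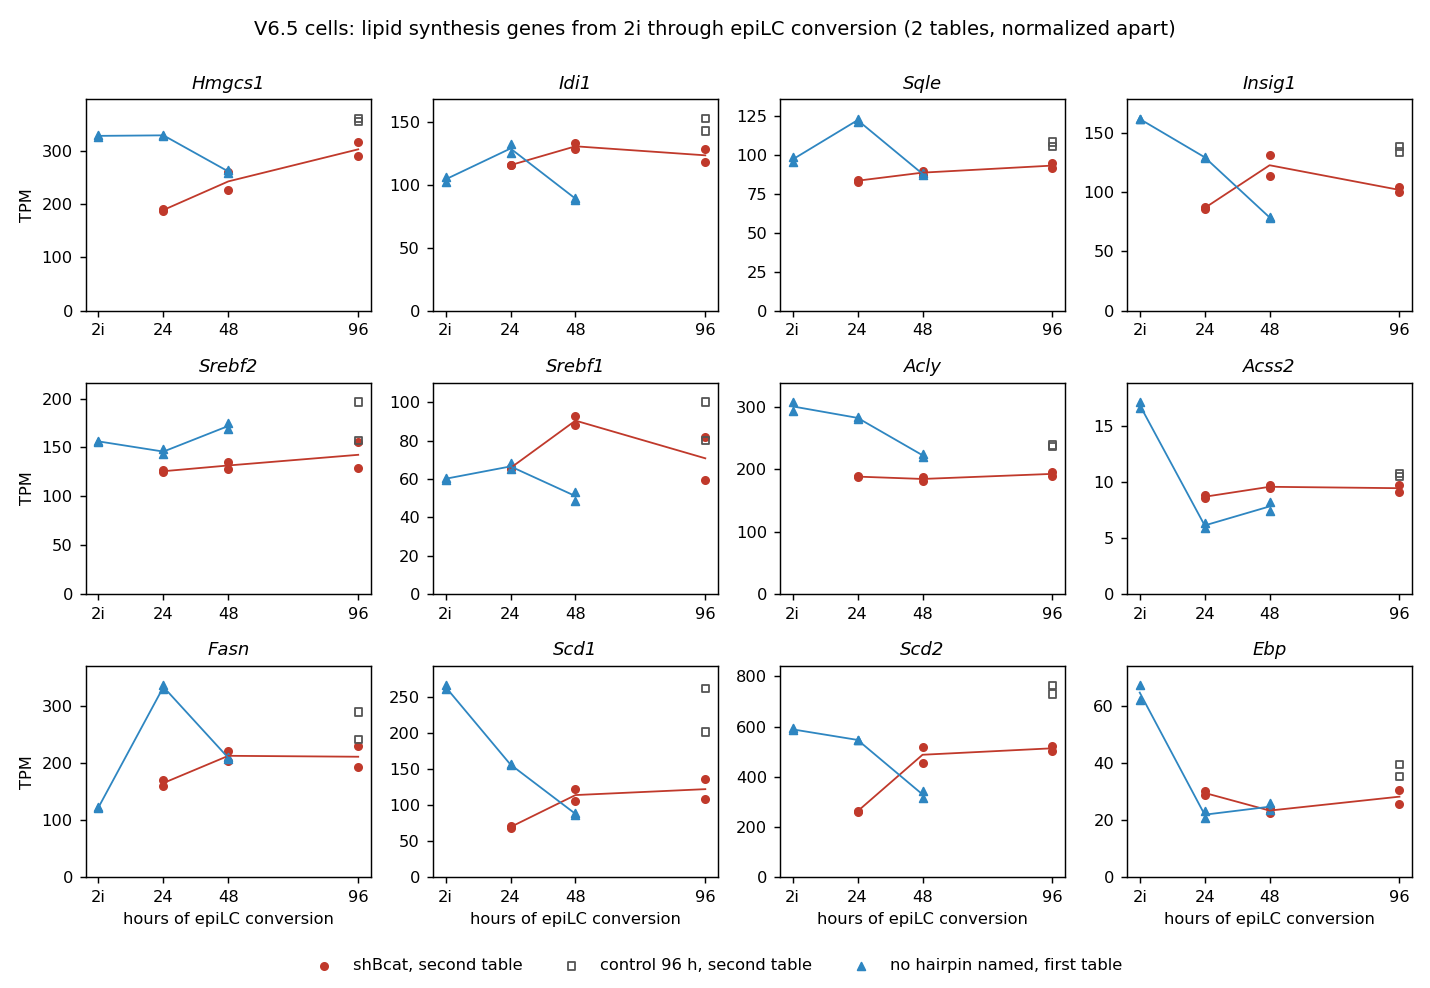
TPM of 12 of the genes in V6.5 cells against hours of epiLC conversion, with 2i at the left; circles are shBcat and open squares the 96 h controls of the second TPM table, triangles the libraries with no hairpin named of the first, and lines join the means of 2 libraries. Scd1 and Insig1 fall at each step in the first table, Fasn peaks at 24 h, and in the second table both shBcat points lie below both controls in each panel except Srebf1.

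The regulators did not move as one over these times. Srebf2 had 156 and 157 TPM in 2i, 148 and 144 TPM at 24 h and 169 and 175 TPM at 48 h. It fell at 24 h against 2i (log2 change -0.10, SE 0.029, adjusted p = 0.0185) and rose at 48 h against 24 h (0.24, SE 0.029, adjusted p = 0.000301). Srebf1 had 59.7 and 60.6 TPM in 2i, 68.2 and 65.02 TPM at 24 h and 53.5 and 48.7 TPM at 48 h. It rose at 24 h (0.14, SE 0.05, adjusted p = 0.0341) and fell at 48 h against 24 h (-0.38, SE 0.05, adjusted p = 0.000423). At each of these steps Srebf1 and Srebf2 thus moved in opposite directions. Insig1 fell at each step, with 162 and 161 TPM in 2i, 129.7 and 129 TPM at 24 h and 79.05 and 78.2 TPM at 48 h (-1.03 at 48 h against 2i, SE 0.025, adjusted p = 1.27e-07). Scap rose at each step, with 10.2 and 10.8, 18.3 and 18.2, and 25.5 and 22.7 TPM (1.13 at 48 h against 2i, SE 0.062, adjusted p = 4.79e-06). Insig2 had 14.7 and 14.02, 9.10 and 10.7, and 14.1 and 12.9 TPM; it rose at 48 h against 24 h (0.42, SE 0.081, adjusted p = 0.00296).

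In the sterol arm, the steps up to lanosterol and those after it differed at 24 h; this grouping was made after the values were seen and was not tested. Of 10 enzymes from Acat2 to Lss, 8 rose, 1 fell (Fdft1) and Hmgcs1 did not pass the test. Of the 8 enzymes after lanosterol, 1 rose (Hsd17b7), 5 fell (Cyp51, Tm7sf2, Msmo1, Ebp and Dhcr7) and Nsdhl and Sc5d did not pass. Lss had 92.2 and 94.4 TPM in 2i, 149 and 141 TPM at 24 h and 78.9 and 83.2 TPM at 48 h. It rose by 0.63 at 24 h (SE 0.04, adjusted p = 9.05e-06) and fell by 0.83 from then on (SE 0.04, adjusted p = 3.44e-06). Mvk, the mevalonate kinase, had 30.9 and 33.6, 46.4 and 45.1, and 24.4 and 24.0 TPM. Its rise at 24 h was 0.49 (SE 0.048, adjusted p = 8.06e-05), and at 48 h against 24 h it fell by 0.89 (SE 0.048, adjusted p = 5.7e-06). Both genes thus peaked at 24 h and ended below 2i. Sqle followed the same course with 98.6 and 95.7, 121 and 123, and 88.3 and 87.4 TPM (0.33 at 24 h, SE 0.029, adjusted p = 4.33e-05; -0.47 at 48 h against 24 h, SE 0.029, adjusted p = 9.38e-06). Idi1 did so as well, with 106 and 103, 126 and 132, and 89.85 and 88.45 TPM (0.30 at 24 h, SE 0.036, adjusted p = 0.000232; -0.53 at 48 h against 24 h, SE 0.036, adjusted p = 1.61e-05).

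Hmgcs1 was level at first, with 330.3 and 327 TPM in 2i, 329.9 and 329 TPM at 24 h and 263 and 259.6 TPM at 48 h. Its log2 change was 0.0044 at 24 h (SE 0.023, adjusted p = 0.871), and it fell by 0.33 at 48 h against 24 h (SE 0.023, adjusted p = 1.73e-05). Acat2 fell at 48 h against 24 h by 0.59 (SE 0.028, adjusted p = 3.24e-06). Of the late enzymes, Ebp, the sterol isomerase, had 62.3 and 67.4 TPM in 2i, 20.8 and 23.1 TPM at 24 h and 26.1 and 23.5 TPM at 48 h, and fell by 1.52 at 24 h (SE 0.072, adjusted p = 2.43e-06). Tm7sf2, a sterol reductase, had 48.9 and 47.1, 23.6 and 24.9, and 17.6 and 18.2 TPM and fell by 1.38 at 48 h against 2i (SE 0.044, adjusted p = 3.94e-07). Msmo1 had 339 and 328, 198 and 199.9, and 187 and 192 TPM and fell by 0.81 at 48 h against 2i (SE 0.029, adjusted p = 6.32e-07). In these late genes most of the fall lay in the first 24 h. Sc5d, the sterol desaturase, was the only sterol enzyme that rose at 48 h against 2i in this fit (0.17, SE 0.039, adjusted p = 0.00645), with 31.3 and 31.9 TPM in 2i and 35.0 and 36.4 TPM at 48 h.

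The fatty acid arm split by gene. Fasn had 124 and 121 TPM in 2i, 336 and 331 TPM at 24 h and 211 and 207 TPM at 48 h. It rose by 1.44 at 24 h (SE 0.026, adjusted p = 7.28e-08), the largest rise of the set, and fell by 0.67 at 48 h against 24 h (SE 0.026, adjusted p = 1.6e-06). Acaca, the acetyl-CoA carboxylase that feeds it, moved with it, at 48.45 and 47.8, 81.2 and 81.9, and 67.1 and 65.1 TPM (0.75 at 24 h, SE 0.03, adjusted p = 1.22e-06). The desaturases and the elongase went the other way at 24 h. Scd1 had 261 and 265 TPM in 2i, 155 and 157 TPM at 24 h and 89.6 and 85.8 TPM at 48 h, and fell by 1.58 at 48 h against 2i (SE 0.03, adjusted p = 5.04e-08). Scd2 had 593 and 585, 546 and 548, and 344 and 316 TPM and fell by 0.84 at 48 h against 2i (SE 0.04, adjusted p = 2.56e-06). Elovl6, which elongates the products of fatty acid synthase, had 174 TPM in both 2i libraries, 97.6 and 94.8 TPM at 24 h and 69.4 and 68.1 TPM at 48 h, and fell by 1.33 at 48 h against 2i (SE 0.028, adjusted p = 7.95e-08). Acss2 had 16.6 and 17.2, 5.92 and 6.33, and 7.46 and 8.19 TPM; it fell by 1.33 at 24 h (SE 0.064, adjusted p = 2.48e-06) and rose by 0.31 at 48 h against 24 h (SE 0.064, adjusted p = 0.00395). Acly had 294 and 308, 284 and 281, and 225 and 221 TPM and fell by 0.43 at 48 h against 2i (SE 0.03, adjusted p = 1.51e-05).

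With shBcat, many of the genes rose over the same stretch of conversion. At 48 h against 24 h with shBcat, 18 members rose and 2 fell (Ebp and Elovl6), where 33.4% of all genes tested were called, 15.7% higher and 17.8% lower. Their median log2 change was 0.26, against -0.02 over all genes. At 96 h against 48 h with shBcat, 11 rose and 2 fell (Insig1 and Elovl6), where 35% were called, 25.2% higher and 9.83% lower, and the median log2 change was 0.11, against 0.09 over all genes. With median-of-ratios scaling, under which the median of all genes was 0.0051, 4 members rose and 4 fell in this last comparison. Of 15274 genes tested, 2577 rose and 2378 fell under that scaling. Without that scaling, the members' median at 48 h was 0.26 and 0.25 when replicate 1 or 2 of 24 h was left out. It was 0.19 and 0.31 without replicate 1 or 2 of 48 h. Over all genes it was -0.022 to -0.012. At 96 h against 48 h the members' median was 0.18 and 0.10 without replicate 1 or 2 of 48 h, against 0.098 and 0.093 over all genes. It was 0.17 and 0.095 without replicate 1 or 2 of 96 h, against 0.12 and 0.071 over all genes. At 48 h, replicate 1 exceeded replicate 2 in 30 of 31 members, so the libraries of that group differed across the whole set.

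Scd2 had 261 and 265 TPM at 24 h with shBcat, 519 and 457 TPM at 48 h and 505 and 523 TPM at 96 h. It rose by 0.89 at 48 h (SE 0.063, adjusted p = 7.39e-05), the largest rise among the members, and its log2 change at 96 h against 48 h was 0.08 (SE 0.063, adjusted p = 0.378). Scd1 had 70.8 and 68.2, 122 and 106, and 108 and 135 TPM and rose by 0.70 at 48 h (SE 0.15, adjusted p = 0.0139). Fasn had 159 and 171, 221 and 204, and 192 and 229.8 TPM and rose by 0.36 at 48 h (SE 0.11, adjusted p = 0.0368). In both desaturases 1 of the 2 libraries at 48 h lay below the lower one at 96 h. Insig1 had 86.0 and 87.2, 132 and 114, and 104 and 99.8 TPM; it rose by 0.49 at 48 h (SE 0.069, adjusted p = 0.00146) and fell by 0.26 at 96 h against 48 h (SE 0.069, adjusted p = 0.0222). Hmgcs1 rose at both steps, with 188 and 190.1, 260 and 226, and 316 and 290.15 TPM (0.36 at 48 h, SE 0.071, adjusted p = 0.00693; 0.32 at 96 h against 48 h, SE 0.071, adjusted p = 0.0114). Lss had 85.1 and 79.85, 126 and 108, and 124 and 123 TPM and rose by 0.49 at 48 h (SE 0.08, adjusted p = 0.00283). Tm7sf2 and Nsdhl rose by 0.52 and 0.46 at 48 h (SE 0.1 and 0.057, adjusted p = 0.0067 and 0.000859), and Mvd and Msmo1 by 0.45 and 0.40 at 96 h against 48 h (SE 0.075 and 0.063, adjusted p = 0.00366 and 0.00297). Acly (189 and 188, 187 and 182, and 189.7 and 196 TPM) and Srebf2 (125 and 126, 135 and 128, and 129 and 155 TPM) did not pass at either step, nor did Sqle (0.09 and 0.07), Srebf1 (0.45 and -0.37) or Acss2 (0.13 and -0.02), whose log2 changes are given for 48 h against 24 h and 96 h against 48 h.

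Set side by side and untested, since the libraries lie in tables normalized apart, 20 members had both libraries higher at 48 h than at 24 h with shBcat and both lower without a hairpin named. Of 14832 genes tested in both tables, 5.74% did so and 13.7% did the reverse. Of all genes tested in each table, 33.7% had both libraries higher at 48 h than at 24 h with shBcat and 39.5% both lower, and without a hairpin named 51.8% had both higher and 35.1% both lower. Hmgcs1 stood at 188 and 190.1 TPM at 24 h with shBcat and 329.9 and 329 TPM at 24 h with no hairpin named. At 48 h it stood at 260 and 226 TPM with shBcat and 263 and 259.6 TPM with no hairpin named. Scd1 likewise had 70.8 and 68.2 TPM at 24 h with shBcat, against 155 and 157 TPM, and 122 and 106 TPM at 48 h, against 89.6 and 85.8 TPM. Markers differed too. Formative genes summed to 423 and 436 TPM at 24 h with shBcat, against 899 and 891 TPM, and to 341 and 331.5 TPM at 48 h, against 359 and 357 TPM. Naive genes summed to 182 and 181 TPM at 24 h with shBcat, against 135 and 141 TPM, and to 82.3 and 81.9 TPM at 48 h, against 61.7 and 63.2 TPM. The part of these markers in the lipid values was not tested.

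In QKO cells in 2i, the members were higher with shBcat in most cases, but 1 passed the test. Lss rose, and 0 members fell, where 2.15% of all genes tested were called, 0.585% higher and 1.56% lower. The 3 shBcat libraries lay above the 3 shGFP libraries in 21 of 31 members (67.7%), which was so for 10.9% of all genes, and below them in 0, which was so for 24.6% of all genes. The median log2 change was 0.31 over the members and -0.04 over all genes. At an unadjusted p under 0.05, 21 of 31 members were higher and 0 lower, against 8.64% and 20% of all genes tested.

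**Figure D3:**
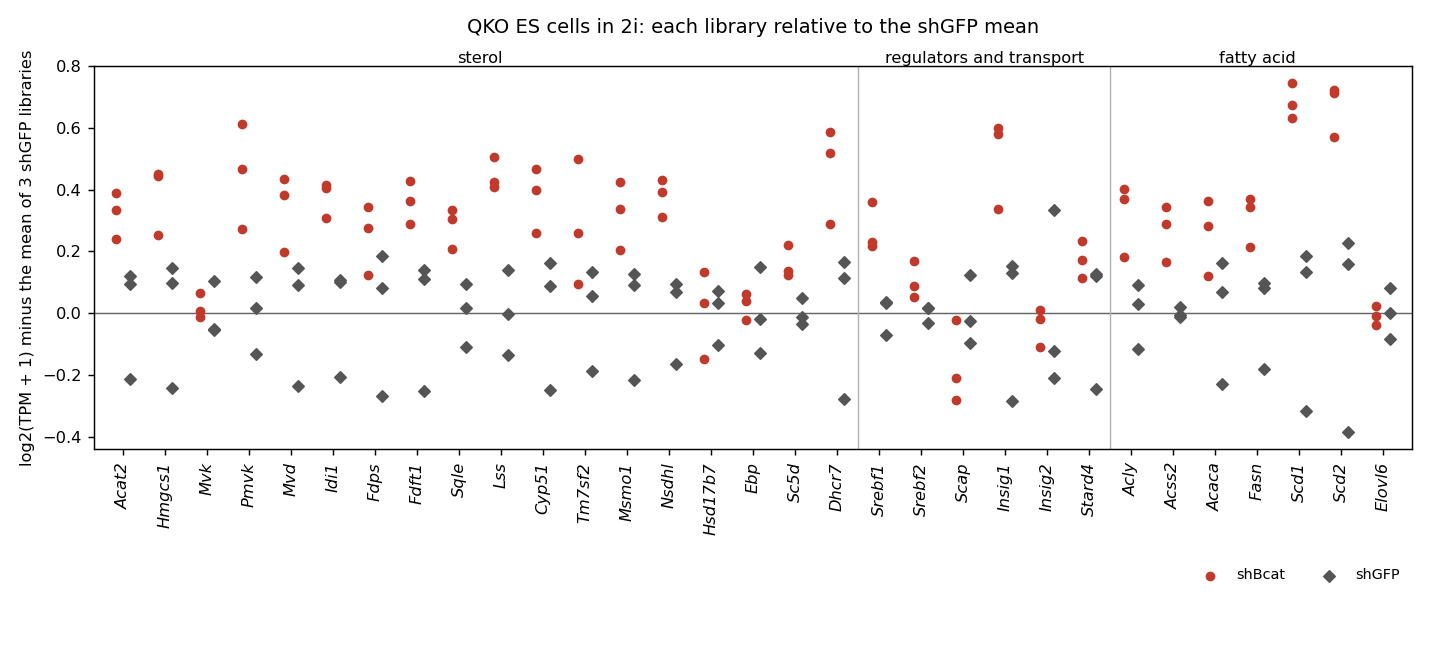
Each QKO library relative to the mean of the 3 shGFP libraries, as log2(TPM + 1) minus that mean, for the 31 genes grouped by arm; circles are shBcat and diamonds shGFP. In 21 genes all 3 circles lie above all 3 diamonds, and the lowest diamond is shGFP replicate 2 in 27 genes.

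Lss had 47.0, 47.6 and 50.4 TPM with shBcat in QKO cells, against 38.9, 31.9 and 35.1 TPM with shGFP, and rose by 0.45 on the log2 scale (SE 0.074, adjusted p = 0.0446). Desaturases differed most. Scd1 had 212, 229 and 218 TPM with shBcat and 149, 109 and 155 TPM with shGFP (log2 change 0.68, SE 0.13, adjusted p = 0.0528). Scd2 had 420.3, 464 and 468 TPM with shBcat and 316, 216 and 331 TPM with shGFP (0.67, SE 0.16, adjusted p = 0.0701). Neither gene's groups overlapped. Insig1 had 88.6, 105 and 107 TPM with shBcat and 76.7, 57.3 and 78.0 TPM with shGFP (0.51, SE 0.13, adjusted p = 0.0746). Srebf1 had 71.5, 78.25 and 70.9 TPM with shBcat and 62.4, 57.9 and 62.3 TPM with shGFP (0.27, SE 0.054, adjusted p = 0.0512). Srebf2 differed less, with 109, 118 and 111 TPM with shBcat and 106, 102 and 106 TPM with shGFP (0.10, SE 0.042, adjusted p = 0.157).

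Of the sterol enzymes in QKO cells, Hmgcs1 had 187, 215 and 214 TPM with shBcat and 168, 133 and 174 TPM with shGFP (0.38, SE 0.11, adjusted p = 0.0884). Idi1 had 79.4, 85.0 and 85.5 TPM with shBcat and 68.6, 55.2 and 69.0 TPM with shGFP (0.38, SE 0.088, adjusted p = 0.059). Sqle had 86.3, 94.3 and 92.5 TPM with shBcat and 75.5, 69.05 and 79.8 TPM with shGFP (0.28, SE 0.062, adjusted p = 0.0552). In each the groups were apart, with shGFP replicate 2 the lowest. Nsdhl had 30.05, 32.8 and 31.8 TPM with shBcat and 25.7, 21.3 and 25.3 TPM with shGFP (0.38, SE 0.079, adjusted p = 0.0523). In the fatty acid arm, Acly had 353, 403 and 411 TPM with shBcat and 317, 287 and 331 TPM with shGFP (0.32, SE 0.075, adjusted p = 0.059). Fasn had 152, 169 and 166 TPM with shBcat and 140.1, 115 and 138 TPM with shGFP (0.31, SE 0.082, adjusted p = 0.0697), and Acss2 had 13.1, 14.4 and 15.0 TPM with shBcat and 11.5, 11.5 and 11.8 TPM with shGFP (0.27, SE 0.067, adjusted p = 0.0636). None of these passed.

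Fibroblast or feeder markers moved with the groups in QKO cells. The 6 markers summed to 55.2, 71.3 and 82.3 TPM with shBcat, against 324, 548 and 232 TPM with shGFP, and 4 of the 6 fell. The 6 primitive endoderm markers summed to 15.7, 9.55 and 9.47 TPM with shBcat, against 24.4, 37.6 and 21.5 TPM with shGFP. The sums were highest in shGFP replicate 2, in which 27 of 31 lipid genes were the lowest of their group, and no marker of either list was at 0 throughout a group. The 5 formative genes summed to 75.2 to 90.4 TPM with shBcat and 68.4 to 79.4 TPM with shGFP, and Klf4 of the 8 naive genes fell (-0.33). The part of these markers in the lipid difference was not tested. Without shGFP replicate 2 the median log2 change of the members was 0.22 and 2 passed, where 191 of 15327 genes tested were called. Without shBcat replicate 1, 2 passed, where 450 of 15418 genes were called. Without shGFP replicate 3, 5 passed, where 964 of 15408 were called. None passed (0) without shBcat replicate 2 or 3 or shGFP replicate 1. In those fits 11 of 15412, 10 of 15399 and 8 of 15336 genes were called, so few genes passed at all. The count was 0 with no filter, where 14 of 34887 genes were called, and 8 with a minimum of 5 TPM. All 8 rose, where 245 of 11090 genes tested rose and 610 fell.

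In V6.5 cells in 2i, shBcat changed few of these genes. Against shGFP, Sqle rose and Ebp fell, 2 of 31 members, where 8.71% of all genes tested were called, 3.51% higher and 5.21% lower. The median log2 change was 0.08 over the members, 0.26 over the sterol arm and -0.06 over the fatty acid arm, against 0.01 over all genes. The members' median was -0.053 with shGFP replicates 3 and 4 left out, where that of all genes was -0.065. Both shBcat libraries lay above all 6 shGFP libraries in 9 of 31 members (29%), which was so for 16.6% of all genes, and 8 of those 9 were sterol enzymes. Libraries with shBcat lay below all 6 for 17.6% of all genes, Scd2 among them.

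**Figure D4:**
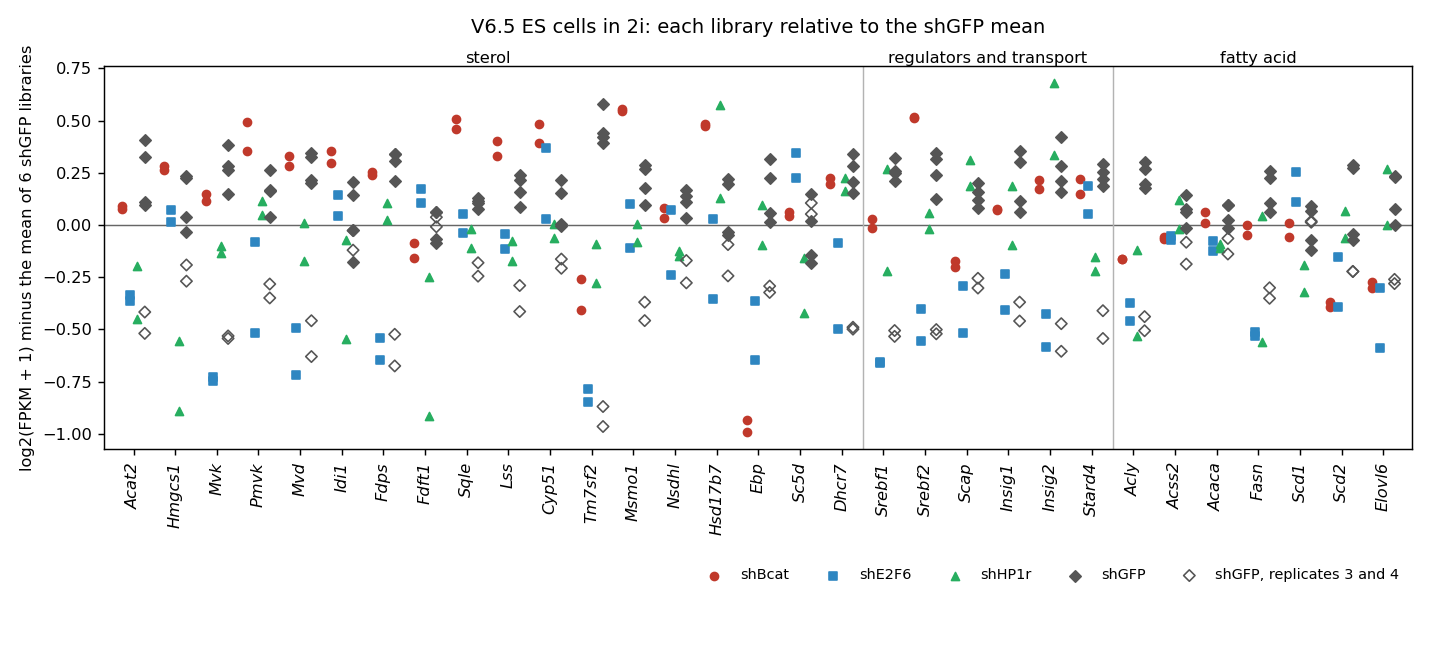
Each V6.5 hairpin library in 2i relative to the mean of the 6 shGFP libraries, as log2(FPKM + 1) minus that mean, for the 31 genes grouped by arm; symbols mark shBcat, shE2F6, shHP1r and shGFP, with open diamonds for shGFP replicates 3 and 4. The open diamonds lie below the other 4 controls in 27 genes, and the shBcat libraries lie lowest for Ebp.

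Sqle had 27.7 and 28.6 FPKM with shBcat, against 16.6 to 21.8 FPKM (median 21.2) with shGFP, a log2 change of 0.48 (SE 0.12, adjusted p = 0.03). Ebp had 7.81 and 8.16 FPKM with shBcat, against 13 to 20.8 FPKM (median 16.95) with shGFP, and fell by 0.96 (SE 0.17, adjusted p = 0.0074). In both genes the groups were apart. Srebf2 had 71.5 and 71.7 FPKM with shBcat, above the 34.4 to 63.5 FPKM (median 56.6) with shGFP, but did not pass (0.52, SE 0.24, adjusted p = 0.232). Cyp51, the lanosterol demethylase, had 35.5 and 33.3 FPKM with shBcat and 21.6 to 29.3 FPKM (median 25.1) with shGFP (0.44, SE 0.13, adjusted p = 0.0681). Hsd17b7 had 5.81 and 5.76 FPKM with shBcat and 3.11 to 4.67 FPKM (median 3.73) with shGFP (0.48, SE 0.16, adjusted p = 0.1). Scd2 had 170.0 and 167 FPKM with shBcat and 188 to 268 FPKM (median 211) with shGFP, a log2 change of -0.38 (SE 0.16, adjusted p = 0.185), so here the shBcat libraries were the lower ones. For the other genes named throughout, the log2 changes were 0.27 for Hmgcs1, 0.33 for Idi1, 0.08 for Insig1, 0.0073 for Srebf1, -0.16 for Acly, -0.06 for Acss2, -0.02 for Fasn and -0.02 for Scd1, with adjusted p of 0.19 to 0.992.

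As shGFP replicates 3 and 4 were low for most members, the test was repeated with other sets of controls. With a term for the libraries that stood apart, 4 members rose (Cyp51, Sqle, Srebf2 and Msmo1) and 6 fell (Acly, Tm7sf2, Scd2, Ebp, Scap and Elovl6) with shBcat. When shGFP replicates 3 and 4 were left out, 3 rose and 6 fell. Averaging library pairs (1 with 2, 3 with 4, 5 with 6) left 1 value for shBcat. The members' median log2 change was then 0.082, against 0.014 over all genes. Without shBcat replicate 1 or 2 it was 0.090 and 0.079, against 0.014 and 0.0083 over all genes. Of all genes tested, 1144 of 14407 rose and 2329 fell with the term, and 905 of 14374 rose and 1949 fell without shGFP replicates 3 and 4. Some markers of cell state moved with shBcat: the 5 formative genes summed to 27.9 and 29.5 FPKM with shBcat, against 14.3 to 18.1 FPKM with shGFP. The 8 naive genes summed to 424 and 443 FPKM, within the 394 to 599.9 FPKM of shGFP. Otx2 rose (1.73) and 2 of the 3 formative genes tested did not pass. Dnmt3a of that list lay at 4.16 to 4.24 FPKM with shBcat, below the 4.31 to 7.62 FPKM of shGFP. Tbx3 (-1.03) and Tfcp2l1 (-1.13) of the naive genes fell, and 6 of the 8 did not pass. Their part in the lipid values was not tested.

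With HP1γ knockdown, few of these genes passed the test. With shHP1r against shGFP, 0 members rose and 2 sterol enzymes fell (6.45% of the members). Of all genes 7.59% were called, 5.89% higher and 1.7% lower, so the count alone is near the background. Hmgcs1 had 63.6 and 80.6 FPKM with shHP1r, against 98.5 to 140.0 FPKM (median 119) with shGFP, and fell by 0.72 (SE 0.15, adjusted p = 0.0162). Fdft1, the squalene synthase, had 18.8 and 30.4 FPKM with shHP1r, against 34.1 to 38 FPKM (median 36.7), and fell by 0.58 (SE 0.14, adjusted p = 0.0341). The shHP1r libraries differed from each other in Fdft1, though both lay below every control. Scd1 had 73.9 and 67.5 FPKM with shHP1r, against 77.6 to 90.2 FPKM (median 85.45), and Sc5d 8.65 and 10.6 FPKM, against 10.4 to 13.3 FPKM; neither passed (-0.26, SE 0.095, adjusted p = 0.138, and -0.29, SE 0.11, adjusted p = 0.156). The other genes named throughout had log2 changes of -0.33 for Acly, -0.31 for Idi1, -0.26 for Fasn, -0.06 for Sqle, 0.05 for Acss2, 0.05 for Insig1, 0.02 for Srebf1 and Srebf2 and 0.0019 for Scd2. With the term for the libraries that stood apart, 12 members fell, and 9 did without shGFP replicates 3 and 4. Averaging pairs left 1 value for shHP1r, and the members' median log2 change was then -0.064, against 0.038 over all genes. Without shHP1r replicate 1 or 2 it was -0.079 and -0.075, against 0.035 and 0.034 over all genes. A single member (1) passed in each fit that left out shGFP replicate 3, 4, 5 or 6, where 752 to 883 of all genes tested were called. Of all genes tested, 1460 of 14407 rose and 1836 fell with the term, and 1140 of 14374 rose and 1190 fell without shGFP replicates 3 and 4. Markers of other cell types were higher in these libraries: the fibroblast or feeder sum was 5.20 and 3.32 FPKM with shHP1r, against 0.68 to 1.63 FPKM with shGFP, and the primitive endoderm sum 4.81 and 3.65 FPKM, against 0.99 to 3.21 FPKM, with Thy1 (1.22) and Dab2 (0.85) past the test; their part was not tested.

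Set directly against shBcat, shHP1r had 1 member higher and 3 lower, where 9.31% of all genes were called, 6.97% higher and 2.34% lower. Hmgcs1 stood at 63.6 and 80.6 FPKM with shHP1r and 145 and 143 FPKM with shBcat (log2 change -0.998, SE 0.19, adjusted p = 0.00625). Idi1 stood at 23.5 and 33.0 FPKM with shHP1r and 44.7 and 43.0 FPKM with shBcat (-0.64, SE 0.17, adjusted p = 0.0402), and Sqle at 19.6 and 18.3 FPKM with shHP1r and 27.7 and 28.6 FPKM with shBcat (-0.55, SE 0.14, adjusted p = 0.0374). Ebp was the exception, at 17.7 and 15.4 FPKM with shHP1r and 7.81 and 8.16 FPKM with shBcat (0.96, SE 0.21, adjusted p = 0.0161). Both shHP1r libraries lay below both shBcat libraries in 18 of 31 members (58.1%), of which 14 were sterol enzymes, against 32.1% of all genes. The other genes named throughout had log2 changes of -0.50 for Srebf2, -0.23 for Fasn and Scd1, -0.17 for Acly, -0.03 for Insig1, 0.02 for Srebf1, 0.11 for Acss2 and 0.38 for Scd2. Adding the term gave 3 members higher and 11 lower, where 2315 of 14407 genes tested were higher and 1502 lower. Averaging pairs, which left 1 value for each knockdown, gave a median log2 change of -0.20 over the members and -0.0033 over all genes. Leaving out shBcat replicate 1 or 2 gave members' medians of -0.22 and -0.21. Leaving out shHP1r replicate 1 or 2 gave -0.20 and -0.26.

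With shE2F6 against shGFP, 0 members passed the limma test, where 1.06% of all genes were called, 0.41% higher and 0.652% lower; at an unadjusted p under 0.05, 1 of 31 was higher and 7 lower, against 6.05% and 27.7% of all genes tested. The median log2 change was -0.29 over the members, and all genes shifted by -0.20, so the members lay little below the rest. With median-of-ratios scaling the shift of all genes was -0.04 and the members' median -0.10. Mvk had 4.17 and 4.23 FPKM with shE2F6 and 4.95 to 10.3 FPKM with shGFP (-0.74, SE 0.25, adjusted p = 0.0949), Srebf1 8.78 and 8.81 FPKM and 9.69 to 18.3 FPKM (-0.66, SE 0.25, adjusted p = 0.115), and Fasn 56.1 and 56.9 FPKM and 63.8 to 97.7 FPKM (-0.52, SE 0.2, adjusted p = 0.112). These levels lay close to shGFP replicates 3 and 4, which had 4.95 and 5.00 FPKM of Mvk, 9.90 and 9.69 FPKM of Srebf1 and 63.8 and 66.1 FPKM of Fasn. With those 2 libraries as the only controls, Stard4 rose, at 11 and 9.95 FPKM with shE2F6 against 6.24 and 6.94 FPKM in those controls (0.60, adjusted p = 0.0366), the median was 0.07 and no other member passed. Without both of them 18 members fell and 1 rose, and 9 and 5 fell without replicate 3 or replicate 4 alone. Of all genes tested, 6798 of 14374 fell and 1697 rose without both. Without replicate 3 or 4 alone, 3527 of 14393 and 2894 of 14389 genes fell. With those 2 libraries as the only controls, 79 of 14199 genes rose and 83 fell. The other genes named throughout had log2 changes of -0.48 for Srebf2, -0.42 for Acly, -0.32 for Insig1, -0.27 for Scd2, -0.06 for Acss2, 0.0060 for Sqle, 0.04 for Hmgcs1, 0.09 for Idi1 and 0.18 for Scd1.

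Against shBcat, shE2F6 had 3 members lower and 0 higher, where 15.2% of all genes were called, 5.01% higher and 10.2% lower. Srebf2 stood at 37.5 and 33.6 FPKM with shE2F6 and 71.5 and 71.7 FPKM with shBcat (-0.99, SE 0.29, adjusted p = 0.0471). Pmvk stood at 14.3 and 10.3 FPKM with shE2F6 and 21.8 and 19.7 FPKM with shBcat (-0.72, SE 0.22, adjusted p = 0.0491), and Sqle at 20.6 and 19.3 FPKM with shE2F6 and 27.7 and 28.6 FPKM with shBcat (-0.48, SE 0.14, adjusted p = 0.0491). The shE2F6 libraries stood apart in mitochondrial share and the shBcat libraries did not, so the shift between library sets could be taken only from the shGFP libraries, which lie in both. The other genes named throughout had log2 changes of -0.67 for Srebf1, -0.50 for Fasn, -0.40 for Insig1, -0.26 for Acly, -0.23 for Hmgcs1 and Idi1, 0.11 for Scd2 and 0.20 for Scd1, and Acss2 was level. Under a term for the library set, 900 of 14407 genes tested were higher and 444 lower. With the term for the set, 3 members were higher and 0 lower. The members' median log2 change was 0.11 in place of -0.40 and 23 of 31 were positive. Without the term, that median was -0.39 and -0.40 with shBcat replicate 1 or 2 left out. With shE2F6 replicate 1 or 2 left out it was -0.45 and -0.31. Over all genes it was -0.21 to -0.19 in these fits.

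Other genes of lipid metabolism were read from 5 lists of 50 genes in all. At 96 h with shBcat, 0 of 10 genes of the isoprenoid branch, which leads from farnesyl diphosphate to prenylation, dolichol and ubiquinone, passed the test, nor did any of the 6 genes of SREBP processing and turnover, 8 tested LXR target and sterol handling genes or 10 fatty acid oxidation genes. Of 15 genes of fatty acid elongation, desaturation and activation, 4 fell: Slc25a1, the mitochondrial citrate carrier (-0.37, SE 0.045, adjusted p = 0.00497), Lpin1 (-0.48, SE 0.08, adjusted p = 0.0168) and the desaturases Fads2 (-0.41, SE 0.069, adjusted p = 0.0173) and Fads1 (-0.29, SE 0.054, adjusted p = 0.0248). At 96 h 2.29% of all genes tested were called higher and 2.54% lower. With shBcat in V6.5 cells in 2i, Mbtps2, a protease that releases SREBP from the membrane, rose (0.55, SE 0.092, adjusted p = 0.0052), and Cpt1a, which admits fatty acids to mitochondria for oxidation, fell (-1.34, SE 0.32, adjusted p = 0.027), as did Hadhb (-0.61) of oxidation and Pdss1 (-0.47) of the isoprenoid branch. No other of the 48 genes tested passed, where 8.71% of all genes were called, 3.51% higher and 5.21% lower. In QKO cells Hadhb fell (-0.35, SE 0.055, adjusted p = 0.0414) and 0 of the other 49 genes passed, where 2.15% of all genes were called. The shHP1r libraries gave 1 of 48 genes tested against shGFP (Lpin1, -0.71, adjusted p = 0.0396), where 7.59% of all genes were called. With shE2F6, 0 of 48 passed, where 1.06% of all genes were called.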

How the data were processed

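Of 50 samples in the series, the 32 RNA-seq libraries of mouse ES cells and epiLC were used; 18 chromatin immunoprecipitation and input samples were not analysed here. Total RNA was, per the labels' protocols, extracted with TRIzol, treated with DNase and made into libraries with a TruSeq kit. The authors deposited FPKM values for the 12 V6.5 hairpin libraries and TPM values for the other 20, in 3 tables. The submitters' processing notes name bcl2fastq 2.18, TopHat2 2.0.13, Bowtie2 and Cufflinks 2.2.1 for the FPKM values, bcl2fastq 2.18, STAR, RSEM and Bowtie2 for the TPM values, and the build mm10. The versions of STAR, RSEM and Bowtie2 are not given in the sources used here. The FPKM table holds no value of 0, and 1 further column of per-sample values in it, with 1056 values below 0, was not used. Depth is unknown, so no counting interval is given.

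Each table was tested apart with limma 3.58.1 (R 4.3.3, statmod 1.5.0) on log2(value + 1), for genes at 1 or more in at least 2 libraries. Each fit had 1 term for each group and robust, trended variance moderation, and p-values were adjusted over all genes tested by Benjamini-Hochberg at 0.05, two-sided. The fit was also run on simulated libraries with known changes. These were drawn independently, without closely matching shGFP libraries or a set that stood apart, so they do not cover those features. Adding 1 understates the changes of low genes. Tables were read with Python 3.11.15 and pandas 2.3.3. Groups came from the sample labels. The labels do not say whether replicate numbers pair the libraries, and the main fits did not take them to. The alternatives were another pseudocount, other filters, no variance trend, fits of the compared groups alone, a replicate block, median-of-ratios scaling, single libraries left out and, for V6.5 cells in 2i, averaged pairs, a term for the 4 libraries with high mitochondrial share and fits without shGFP replicates 3 and 4 or with them as the only controls. The members and lists were chosen with earlier results of these data known. Srebf1, Srebf2, Insig1, Hmgcs1, Idi1, Sqle, Acly, Acss2, Fasn, Scd1 and Scd2 were named in every comparison, with up to 6 further members per direction by p-value, or enough to make 4 where fewer passed; Stard4, Scap, Insig2, Tm7sf2, Ebp and other members named beyond this were chosen after their values were seen.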

Additional observations from a re-analysis of the deposited data

Results flagged for a closer look

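The direction of the shBcat difference was not the same in all cells and stages, although these differences lie in tables normalized apart and were not tested against each other. In 20 members all QKO libraries with shBcat lay above all with shGFP while both 96 h epiLC libraries with shBcat lay below both controls: Acat2, Hmgcs1, Pmvk, Mvd, Idi1, Fdft1, Sqle, Lss, Cyp51, Msmo1, Nsdhl, Sc5d, Dhcr7, Srebf2, Insig1, Acly, Acss2, Fasn, Scd1 and Scd2. Of the 13842 genes tested in both tables, 3.5% did so and 4.74% did the reverse. In 8 members (Hmgcs1, Pmvk, Idi1, Sqle, Lss, Cyp51, Msmo1 and Srebf2) the V6.5 libraries in 2i with shBcat lay above all shGFP libraries and those at 96 h lay below the controls, as in 4.22% of 12288 genes. For 1 member, Scd2, QKO libraries with shBcat lay above and V6.5 libraries in 2i with shBcat below their controls, as in 2.1% of 12511 genes.

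Between 24 and 48 h of epiLC, 20 members went up in both libraries with shBcat and down in both with no hairpin named, and 2 members, Ebp and Insig2, went the other way. Of 14832 genes tested in both tables, 5.74% went as the 20 did and 13.7% the other way. This difference, too, was not tested, since the libraries lie in separate tables.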

How the results depend on the processing

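Of 93 log2 changes called for named genes, 0 reversed under any alternative; 61 of their values under changed settings and 92 with a library left out missed the threshold, and 623 and 298 kept it. All values that reversed belong to changes that had not passed, and the cause of the reversals was not tested. Replicate numbers were not taken as pairing the libraries, since the labels do not say that they do, and the replicate block is given here alone. In QKO cells the deviations of same-numbered libraries from their group means correlated at -0.012, -0.042 and 0.131. At 96 h of epiLC those of shBcat and control libraries correlated at 0.283. With the block, 18 members fell and 0 rose at 96 h, where 355 of 15304 genes tested rose and 416 fell. In V6.5 cells with shBcat the members' median was -0.060 with the block and -0.053 with the set term, against 0.083. The block's counts not listed below moved by less than 1.5 times. Precision is limited by 2 libraries in most groups, by unknown depth, and in V6.5 cells in 2i by closely matching shGFP libraries (1 with 2, 3 with 4, 5 with 6). A library left alone in its group is assumed to vary like the others.

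The number of all genes called also moved with the setting and the libraries used, so each count of members is to be read beside it. Of 14407 genes, the replicate block called 7685 for shE2F6 against shGFP, 7826 for shE2F6 against shBcat and 3319 for shHP1r against shBcat. The library set term called 3473 for shBcat and 3296 for shHP1r against shGFP. The compared groups alone gave 8982 of 13422 genes for shE2F6 against shBcat. Without shGFP replicates 3 and 4, 8495 of 14374 genes were called for shE2F6 against shGFP. The counts of members called were 2 for shBcat against shGFP in V6.5 2i, 0 for shE2F6 against shGFP, 2 for shHP1r against shGFP, 4 for shHP1r against shBcat, 3 for shE2F6 against shBcat, 1 for shBcat in QKO cells, 28 for epiLC 24 h against 2i, 28 for epiLC 48 h against 24 h, 29 for epiLC 48 h against 2i, 15 for shBcat at 96 h, 20 for shBcat 48 h against 24 h and 13 for shBcat 96 h against 48 h. With the replicate block they were 4 for shBcat against shGFP in V6.5 2i, 19 for shE2F6 against shGFP, 4 for shHP1r against shGFP, 14 for shHP1r against shBcat, 18 for shE2F6 against shBcat and 0 for shBcat in QKO cells. With median-of-ratios scaling they were 4 for shBcat against shGFP in V6.5 2i, 2 for shBcat in QKO cells and 8 for shBcat 96 h against 48 h. In fits of the compared groups alone they were 1 for shBcat against shGFP in V6.5 2i, 0 for shHP1r against shGFP, 7 for shHP1r against shBcat, 23 for shE2F6 against shBcat, 8 for shBcat at 96 h and 8 for shBcat 96 h against 48 h. With pairs averaged, 1 value was left for each knockdown, so no counts are given. The members' median log2 change was then 0.082 for shBcat, -0.28 for shE2F6 and -0.064 for shHP1r against shGFP. Against shBcat it was -0.20 for shHP1r and -0.39 for shE2F6. With a term for the library set the counts were 10 for shBcat against shGFP in V6.5 2i, 1 for shE2F6 against shGFP, 12 for shHP1r against shGFP and 14 for shHP1r against shBcat. Without shGFP replicates 3 and 4 they were 9 for shBcat against shGFP in V6.5 2i, 19 for shE2F6 against shGFP, 9 for shHP1r against shGFP, 13 for shHP1r against shBcat and 17 for shE2F6 against shBcat. With shGFP replicates 3 and 4 as the only controls they were 1 for shE2F6 against shGFP. With no filter they were 1 for shE2F6 against shBcat, 0 for shBcat in QKO cells, 5 for shBcat at 96 h and 6 for shBcat 96 h against 48 h. With a pseudocount of 0.1 they were 3 for shBcat in QKO cells. With a minimum of 5 they were 8 for shBcat in QKO cells. With no variance trend they were 0 for shBcat in QKO cells. Leaving out each library in turn gave 0 to 2 for shBcat against shGFP in V6.5 2i, 0 to 9 for shE2F6 against shGFP, 0 to 2 for shHP1r against shGFP, 0 to 4 for shHP1r against shBcat, 0 to 0 for shE2F6 against shBcat, 0 to 5 for shBcat in QKO cells, 24 to 25 for epiLC 24 h against 2i, 26 to 27 for epiLC 48 h against 24 h, 29 to 29 for epiLC 48 h against 2i, 4 to 11 for shBcat at 96 h, 8 to 16 for shBcat 48 h against 24 h and 4 to 10 for shBcat 96 h against 48 h.

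With the replicate block, the log2 changes that reversed were Insig1 -0.25 and Srebf1 -0.28 (shBcat against shGFP in V6.5 2i), Hmgcs1 -0.19, Idi1 -0.080 and Sqle -0.084 (shE2F6 against shGFP), Insig1 -0.28, Scd2 -0.28, Srebf1 -0.26 and Srebf2 -0.16 (shHP1r against shGFP). With a term for the library set, the log2 changes that reversed were Insig1 -0.13 and Srebf1 -0.25 (shBcat against shGFP in V6.5 2i), Acly 0.054, Acss2 0.073, Insig1 0.094 and Srebf2 0.034 (shE2F6 against shGFP), Acss2 -0.015, Insig1 -0.16, Scd2 -0.11, Srebf1 -0.24 and Srebf2 -0.24 (shHP1r against shGFP), Acly 0.45, Acss2 0.20, Hmgcs1 0.11, Insig1 0.23 and Srebf1 0.11 (shE2F6 against shBcat). Without shGFP replicates 3 and 4, the log2 changes that reversed were Insig1 -0.13 and Srebf1 -0.25 (shBcat against shGFP in V6.5 2i), Hmgcs1 -0.072 and Sqle -0.10 (shE2F6 against shGFP), Acss2 -0.015, Insig1 -0.16, Scd2 -0.11, Srebf1 -0.24 and Srebf2 -0.24 (shHP1r against shGFP). With median-of-ratios scaling, the log2 changes that reversed were Srebf1 -0.011 (shBcat against shGFP in V6.5 2i), Acss2 0.063 (shE2F6 against shGFP), Scd2 -0.0068 (shHP1r against shGFP), Acss2 0.13 (shE2F6 against shBcat), Acly 0.0027 (shBcat 48 h against 24 h), Acly -0.038, Scd1 -0.0059, Scd2 -0.024 and Sqle -0.028 (shBcat 96 h against 48 h). With shGFP replicates 3 and 4 as the only controls, the log2 changes that reversed were Acly 0.054, Acss2 0.073, Insig1 0.094 and Srebf2 0.034 (shE2F6 against shGFP). With single libraries left out, changes that reversed ranged over Fasn -0.095 to 0.027, Insig1 -0.016 to 0.15, Scd1 -0.055 to 0.012 and Srebf1 -0.099 to 0.071 (shBcat against shGFP in V6.5 2i), Hmgcs1 -0.011 to 0.089 and Sqle -0.043 to 0.051 (shE2F6 against shGFP), Acss2 -0.018 to 0.12, Fasn -0.56 to 0.044, Insig1 -0.096 to 0.19, Scd2 -0.063 to 0.067, Srebf1 -0.22 to 0.27 and Srebf2 -0.085 to 0.089 (shHP1r against shGFP), Acly -0.37 to 0.040, Fasn -0.53 to 0.069, Insig1 -0.17 to 0.11 and Srebf1 -0.23 to 0.26 (shHP1r against shBcat), Acss2 -0.0088 to 0.0088 and Scd2 -0.013 to 0.22 (shE2F6 against shBcat), Hmgcs1 -0.0032 to 0.012 (epiLC 24 h against 2i), Acss2 -0.061 to 0.026, Fasn -0.14 to 0.11, Scd1 -0.066 to 0.25, Scd2 -0.015 to 0.17 and Srebf2 -0.022 to 0.24 (shBcat 96 h against 48 h).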

Other observations

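Lipid genes outside the synthesis set also moved during conversion to epiLC without a hairpin named. At 24 h against 2i, 7 of 10 fatty acid oxidation genes fell and 2 rose, and 8 fell and 2 rose at 48 h against 2i, where 76% and 75.9% of all genes tested were called (39.8% and 30.8% lower). The genes named here were chosen after their values were seen. Cpt1a, the carnitine palmitoyltransferase of the mitochondrial outer membrane, fell by 2.56 at 24 h (SE 0.11, limma adjusted p = 1.63e-06). Of 15 genes of elongation, desaturation and activation, 4 rose and 10 fell at 24 h, and 10 rose and 3 fell at 48 h against 24 h, where 45.2% of all genes were called higher and 28.9% lower. Acsl4, an acyl-CoA synthetase that prefers polyunsaturated fatty acids, rose by 1.70 at 24 h (SE 0.036, adjusted p = 1.2e-07), and Elovl7, an elongase, fell by 2.00 (SE 0.091, adjusted p = 1.92e-06). Soat1, which esterifies cholesterol, rose by 1.60 at 48 h against 24 h (SE 0.038, adjusted p = 3.08e-07).

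With shBcat, 6 of the 15 genes of elongation, desaturation and activation rose and 0 fell at 48 h against 24 h, where 15.7% of all genes were called higher and 17.8% lower, among them Fads2 (0.73, SE 0.069, adjusted p = 0.000247) and Fads1 (0.51, SE 0.054, adjusted p = 0.000429), the desaturases of polyunsaturated fatty acids. In the same comparison 4 of 10 oxidation genes fell and 0 rose, Cpt1a by 0.82 (SE 0.11, adjusted p = 0.00126).

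Fdps stood at a mean of 3.21 FPKM in the V6.5 shGFP libraries and 386 TPM in V6.5 cells in 2i of the first TPM table, a ratio of 120. The median ratio was 2.51 over all 11923 genes compared and 3.62 over the members, so the FPKM level of Fdps is uncertain.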
